A study of Homo sapiens with 3 samples.

Results

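A set of 53 genes that build and police mitosis was followed through AGS cells, a human gastric adenocarcinoma line, exposed to 2 compounds. The genes were taken by name from a list of spindle, kinetochore, checkpoint, chromosome and cytokinesis factors, among 50868 genes in the deposited table. The list was chosen with earlier results of these data known. Each of the 53 genes was found under 1 identifier. RNA was sequenced after 48 h with 12 µM of a compound labelled SFA, with 18 µM of a compound labelled SFE, or with DMSO, the vehicle used as negative control. The labels give 1 library per group, with no replicate cultures, so no difference can be compared with replicate error and no test between conditions was possible. The labels do not spell out the code names SFA and SFE, and the doses differ.

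Cells enter mitosis when CDK1, bound to cyclin A or cyclin B, is freed from inhibitory phosphates by CDC25 phosphatases. Motors and microtubule binders then assemble the spindle, kinetochores tie chromosomes to it, and the spindle checkpoint holds back the anaphase-promoting complex until every chromosome is attached. The complex, with CDC20, then destroys securin and cyclin B, which frees separase to cut cohesin and lets the cell leave mitosis. Many of these genes are transcribed together late in the cell cycle, when the DREAM repressor gives way to B-MYB and FOXM1, and their promoters often carry a short element called the cell cycle homology region together with CCAAT boxes bound by NF-Y. In tumours their RNA is widely read as a sign of proliferation.

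Total counts were 13639844 with SFA, 13644676 with SFE and 18767232 with DMSO. FPKM is the deposited count scaled by gene length and library total, and genes that reached 1 FPKM in any library are called measured, 11680 in all. Of the 53 mitosis genes, 52 were measured. CENPE, a kinetochore motor, was not, at 0.228 FPKM with SFA, 0.277 with SFE and 0.363 with DMSO, from 37, 45 and 81 counts. Measured members held 71 to 10102 counts in a library. The epithelial keratins KRT8 and KRT18 were abundant in every library (223 to 534 FPKM), while the epithelial markers EPCAM, KRT19 and CDH1 lay at or below 0.336 FPKM, and none of the 5 leukocyte, 4 erythroid and 4 endothelial markers looked at reached 1 FPKM. The 6 epithelial markers summed to 518 FPKM with SFA, 528 with SFE and 952 with DMSO, nearly all of it from KRT8 and KRT18. CLDN4, the remaining epithelial marker, went the other way, at 1.97, 1.72 and 1.48 FPKM. Of 6 fibroblast markers 4 were measured, and the list summed to 16.6, 19.8 and 30.6 FPKM with COL1A2 and DCN at or below 0.159. Its members went opposite ways, with COL3A1 at 1.49, 2.40 and 8.47 FPKM and THY1 at 6.48, 7.25 and 4.29. The part of these marker differences in the results was not tested. Strand use in counting is unknown, so 27 members that overlap another listed gene have uncertain counts: CCNA2, CCNB2, CDC25C, PLK1, BUB1B, MAD2L1, CENPA, CENPF, NDC80, NUF2, SPC24, SPC25, KIF11, KIF18A, KIF20A, KIF22, KIF23, KIF2C, KIF4A, ASPM, HMMR, NUSAP1, ANLN, PRC1, NCAPG, SMC4 and FOXM1.

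The promoters of these genes are shown first, because most of them share a cell cycle homology region match and a CCAAT box, which the choice by name did not use. RefSeq windows on GRCh38.p14, from 250 bases before to 50 bases after each start, were on hand for 46 of the 53 genes, 61 windows in all. The motif was searched on both strands as TTTGAA or TTCGAA, and 41 of 61 windows (67.2%) held it, against 16.4% of all 35116 windows and 11.1% of the 10724 windows of genes measured here. CCAAT stood in 42 windows (68.9%), against 34.6% of all windows and 35.1% of those of genes measured here. Both elements stood together in 31 (50.8%), against 6.38% of all and 4.66% of those of genes measured here. An E2F-type site, searched as TTTCCCGC, TTTGGCGC or TTTCGCGC, was found in 4 windows (6.56%), against 2.74% of all windows and 4.52% of those of genes measured here, and counted by gene in 6.52% of members and 6.06% of genes measured. The searches were counted separately, and a match to one motif can share an end base with a match to another. A match describes letters and is not a bound site.

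For 7 genes the 130 bases that end just before the start are printed 5′ to 3′ on the gene's own strand, with cell cycle homology region and CCAAT matches in capitals. A CCAAT box on the opposite strand reads ATTGG and TTTGAA reads TTCAAA. TOP2A and ASPM are shown because they were at least 1.5-fold lower with both compounds, KIF11 because it was next to ASPM the lowest with SFE, PLK1 because its ratio between the compounds lay farthest from 1 among members whose interval excluded 1, and KIF4A, CCNB2 and CDC20 because they lay closer to DMSO. This choice was made after their values were seen.
TOP2A (chr17:40417897-40418026, minus strand): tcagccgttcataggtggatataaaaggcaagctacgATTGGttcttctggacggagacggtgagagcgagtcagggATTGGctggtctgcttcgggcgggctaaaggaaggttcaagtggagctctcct
ASPM (chr1:197146670-197146799, minus strand): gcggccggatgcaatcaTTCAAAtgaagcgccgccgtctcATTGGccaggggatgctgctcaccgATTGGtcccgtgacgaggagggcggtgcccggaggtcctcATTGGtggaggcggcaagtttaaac
KIF11 (chr10:92593000-92593129, plus strand): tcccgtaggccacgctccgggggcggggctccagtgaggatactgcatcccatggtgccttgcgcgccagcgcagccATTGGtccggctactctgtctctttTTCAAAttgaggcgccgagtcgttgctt
PLK1 (chr16:23678759-23678888, plus strand): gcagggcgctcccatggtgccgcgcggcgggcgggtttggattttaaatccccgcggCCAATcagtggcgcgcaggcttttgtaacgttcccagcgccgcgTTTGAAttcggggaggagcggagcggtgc
KIF4A (chrX:70289974-70290103, plus strand): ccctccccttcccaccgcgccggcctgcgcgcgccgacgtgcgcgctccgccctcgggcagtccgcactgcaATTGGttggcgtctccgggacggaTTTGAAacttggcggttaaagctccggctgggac
CCNB2 (chr15:59105016-59105145, plus strand): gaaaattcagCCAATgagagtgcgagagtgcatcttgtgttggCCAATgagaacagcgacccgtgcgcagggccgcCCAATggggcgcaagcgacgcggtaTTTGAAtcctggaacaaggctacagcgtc
CDC20 (chr1:43358851-43358980, plus strand): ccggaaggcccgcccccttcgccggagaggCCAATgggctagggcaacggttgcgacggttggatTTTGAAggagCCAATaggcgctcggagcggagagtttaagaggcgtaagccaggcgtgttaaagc

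All of these stretches but that of TOP2A hold a cell cycle homology region match, and all 7 hold at least 1 CCAAT box. PLK1, CCNB2 and KIF11 carry the match at almost the same place, its first base at -29, -29 and -28 from the start. In TOP2A the nearest match upstream of the start begins at -151, outside the printed bases. Among all member windows 23 of 61 (37.7%) had a match beginning within the last 60 bases before the start, a distance chosen after seeing the positions, against 3.17% of all windows. In measured members with a window, the median log2 count ratio was -0.25 for SFA over DMSO and -0.27 for SFE over DMSO in the 37 with a match, and -0.17 and -0.18 in the 8 without one. Only TTTGAA and TTCGAA were searched, so another spelling of the element in the 8 would not have been found. A link between the match and the ratios was not tested.

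**Figure D1:**
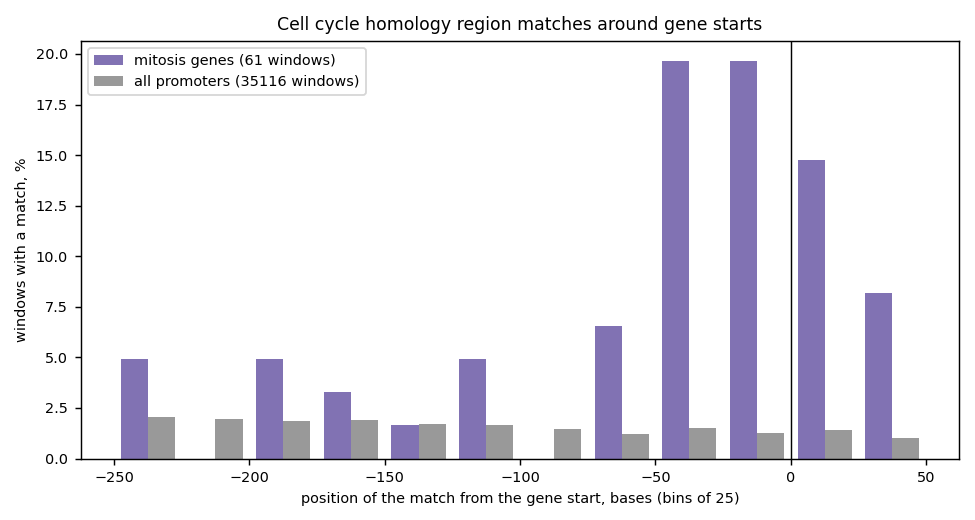
Percent of promoter windows with a cell cycle homology region match beginning in each bin of 25 bases, by distance from the gene start, for mitosis genes (purple, 61 windows) and all RefSeq promoters (grey, 35116 windows). Member matches pile up in the 2 bins just before the start (19.7% of windows each), where all promoters hold 1.51% and 1.26%.

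Differences are given as count ratios after scaling to library totals, with 95% intervals from the exact conditional binomial (Clopper-Pearson) method. These intervals cover counting error only. With bulk RNA, fewer cells in mitosis and less of these RNAs per cell cannot be told apart.

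As a set the mitosis genes stood a little lower after either compound. Their summed level was 5540 CPM with SFA (interval 5501 to 5580), 5321 with SFE (5282 to 5360) and 6209 with DMSO (6174 to 6245). The median log2 count ratio of the 52 measured members was -0.24 for SFA over DMSO, where all measured genes had a median of 0.01, and -0.24 for SFE over DMSO, where all genes had 0.04. With SFA 42 of 52 members were below DMSO, as were 48.5% of all measured genes. With SFE the count was 43 of 52, with 44.7% of all genes below DMSO. Under TMM scaling 50 members were below DMSO with SFE (57.7% of all genes), and under median-ratio scaling 49 were (55.3% of all genes). Both comparisons use the same DMSO library, so they are not independent of each other.

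Most of these differences were modest. At least 1.5-fold lower with SFA were 7 members, 13.5% of those measured, where 8.97% of all genes were: CENPF, TOP2A, NCAPG, ECT2, ASPM, KIF20B and SMC2. With SFE there were 8, or 15.4%, where 6.82% of all genes were: ASPM, KIF11, SMC2, CENPF, TOP2A, NUF2, ECT2 and KIF23. No member was 1.5-fold higher with either compound, where 10.2% of all genes were with SFA and 10.6% with SFE. The members just short of the limit were KIF18A, KIF14, KIF11 and MKI67 with SFA and UBE2C, KIF18A, PLK1 and TTK with SFE. Many calls lay close to the limit: TOP2A, NCAPG, ECT2, ASPM, KIF20B and SMC2 with SFA, and NUF2, ECT2 and KIF23 with SFE, were within 10% of it. On the log2(FPKM + 1) scale, which shrinks genes of low level, 2 members passed it with each compound, 3.85% of members, where 4.67% of all genes did with SFA and 3.48% with SFE. Among genes that reached 5 FPKM, 5.56% of members were 1.5-fold lower with SFA, where 6.1% of all such genes were. With SFE it was 11.1% of such members. That share cannot be set against all such genes, since theirs was not computed. The share past the limit was thus near that of all genes on the log2(FPKM + 1) scale with each compound, and at 5 FPKM with SFA. For SFE at 5 FPKM no such comparison was made.

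Counting error alone was smaller than the difference for many members. The interval lay wholly below 1 for 36 members with SFA (26.8% of all genes) and for 38 with SFE (22.8% of all genes). It lay wholly above 1 for 4 members with SFA, CDC20, CDC25B, KIF2C and SPC25 (27.6% of all genes), and for 1 with SFE, PTTG1 (28.9% of all genes). The members' counts are higher than those of most genes, with a median of 1425 in the DMSO library against 533 over all genes measured, which narrows their intervals. Of the 10 members above DMSO with SFA, 4 (ANLN, CDC20, CDC25C and HMMR) went below it under another scaling of the libraries, as did 14.4% of all genes above DMSO. With SFE this held for 7 of 9, CCNB2, CDC25B, CDCA8, KIF2C, SMC4, SPC24 and SPC25, which left CDC25C and PTTG1 above DMSO under the 4 scalings used, and 23.5% of all genes above DMSO turned likewise. A rescaling shifts every ratio by the same factor, so it turns those closest to 1.

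**Figure D2:**
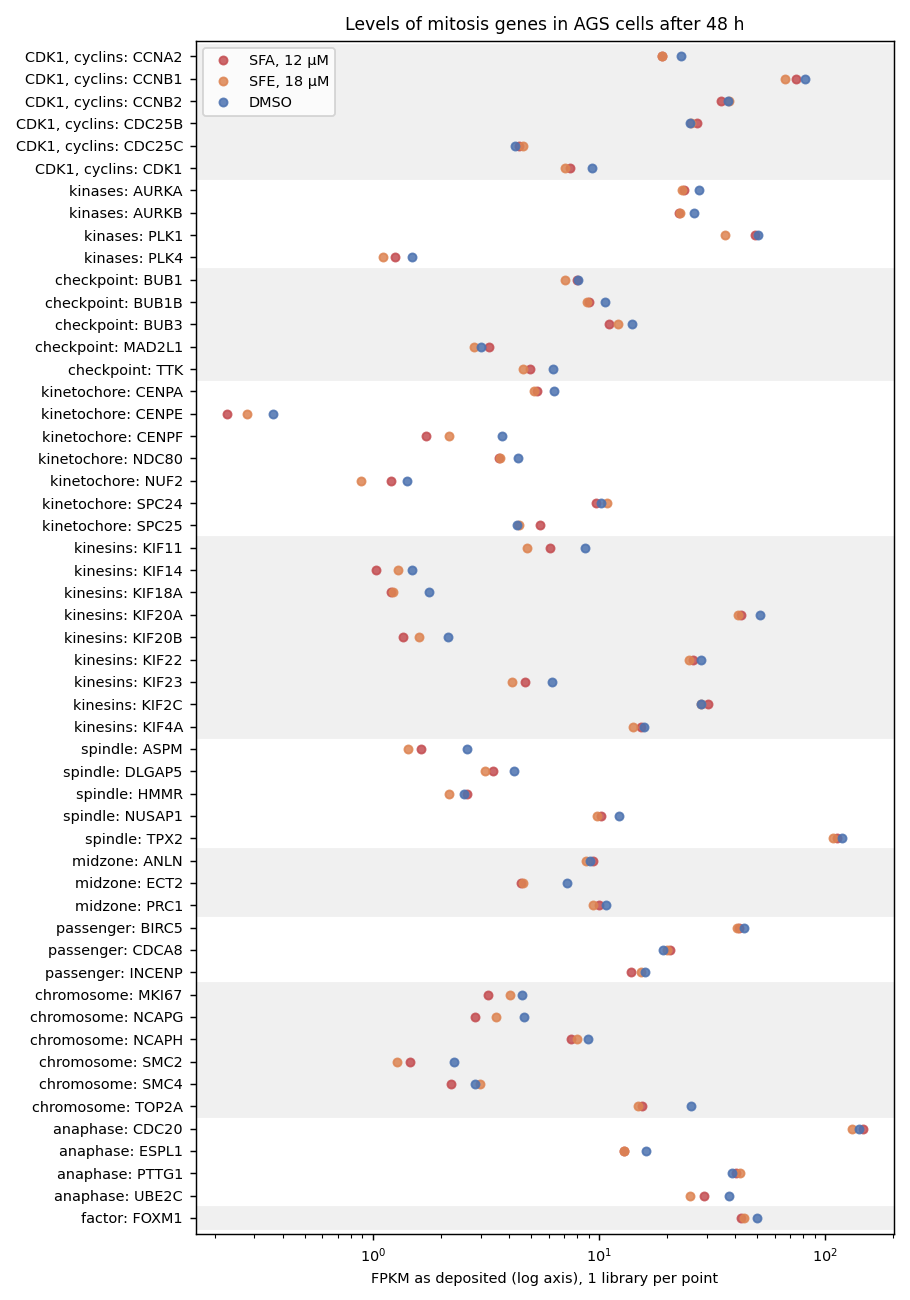
FPKM of each of the 53 mitosis genes, ordered by role, in the SFA (red), SFE (orange) and DMSO (blue) libraries, on a log axis with 1 library per point. Levels run from 0.228 FPKM for CENPE with SFA to 146 FPKM for CDC20 with SFA, and for most genes the blue point lies rightmost.

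The switch that starts mitosis was uneven, with CDK1, CCNA2 and CCNB1 below DMSO with both compounds and the rest closer to DMSO. CDK1, the kinase at its centre (chr10:60778331-60794852), had 7.46 FPKM with SFA, 7.05 with SFE and 9.29 with DMSO. DMSO was the highest of the 3, and the ratios were 0.803 (0.732 to 0.881) for SFA over DMSO and 0.759 (0.69 to 0.834) for SFE over DMSO. CCNB1, which encodes cyclin B1, had 74.4, 66.7 and 81.7 FPKM in the same order, ratios of 0.91 and 0.817. Its partner gene CCNB2 had 34.5, 37.7 and 37.4 FPKM, so that SFE and DMSO lay close together (ratio 1.01, 0.955 to 1.07). Cyclin A2, from CCNA2, stood at 19.1 FPKM with either compound and at 23.03 with DMSO. Of the phosphatases that activate CDK1, CDC25B had 27.0, 25.6 and 25.2 FPKM with SFA, SFE and DMSO, and CDC25C had 4.42, 4.60 and 4.25. The interval lay above 1 for CDC25B with SFA (1.03 to 1.12) and included 1 in the other cases. Under TMM scaling CDC25B with SFE (0.95) and CDC25C with SFA (0.997) were below 1.

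Among the mitotic kinases all 4 had ratios below 1 with both compounds, as did 48.5% of all genes with SFA and 44.7% with SFE. PLK1, which drives centrosome maturation, kinetochore work and cytokinesis (chr16:23677656-23690367), was at 49.1 FPKM with SFA, 36.2 with SFE and 50.7 with DMSO. The SFE library stood apart, with a ratio of 0.714 to DMSO (0.688 to 0.741). The SFA ratio was 0.967, with an interval that included 1 (0.935 to 1.001). AURKA, the spindle pole kinase, had 23.8, 23.2 and 27.6 FPKM, and AURKB, the kinase of the chromosomal passenger complex, 22.7, 22.9 and 26.3. In both Aurora genes the compounds lay side by side below DMSO. PLK4, which sets centriole number, had 1.26, 1.11 and 1.49 FPKM from 159, 140 and 259 counts, and its SFA interval included 1.

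Of the AURKB partners in the passenger complex, BIRC5, which encodes survivin, had 41.5 FPKM with SFA, 40.8 with SFE and 44.0 with DMSO, ratios of 0.944 (0.904 to 0.985) and 0.927 (0.887 to 0.968). INCENP, the scaffold, had 13.8, 15.4 and 16.1 FPKM (ratios 0.861 and 0.959), and CDCA8, which encodes borealin, 20.6, 20.1 and 19.3. CDCA8 had intervals that included 1 for both compounds, and its SFE ratio of 1.04 was 0.973 under TMM scaling.

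Of the spindle checkpoint genes, TTK, the kinase that starts checkpoint signalling at kinetochores, had the largest difference with SFE. It had 4.96 FPKM with SFA, 4.62 with SFE and 6.25 with DMSO (ratios 0.793 and 0.738). BUB1B, which encodes BUBR1, a subunit of the mitotic checkpoint complex, had 9.03, 8.84 and 10.7 FPKM, and BUB3, its binding partner, 11.1, 12.2 and 14.0. Both were lower with each compound. BUB1, a kinetochore kinase, was at 8.03 FPKM with SFA, 7.06 with SFE and 8.11 with DMSO, so that the SFA library lay at the DMSO level (ratio 0.99, 0.911 to 1.08). MAD2L1, whose product MAD2 binds CDC20, had 3.27, 2.81 and 3.00 FPKM, with intervals that included 1 for either compound.

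The kinetochore genes held the largest ratio away from 1 among all members. CENPF, a large protein of the outer kinetochore (chr1:214603195-214664588), had 1.72 FPKM with SFA, 2.18 with SFE and 3.73 with DMSO, from 299, 378 and 891 counts. Its SFA ratio was 0.462 (0.404 to 0.527) and its SFE ratio 0.584 (0.516 to 0.659). The 4 subunits of the NDC80 complex, which grips microtubules, differed among themselves. NDC80 had 3.61, 3.66 and 4.41 FPKM with SFA, SFE and DMSO, and NUF2 had 1.21, 0.885 and 1.41. SPC24, by contrast, had 9.70, 10.9 and 10.2 FPKM. SPC25 had 5.50, 4.43 and 4.35 FPKM, and its SFA ratio of 1.27 (1.01 to 1.59) was the highest of any member against DMSO. These 4 genes rest on 71 to 994 counts, and all overlap another listed gene. CENPA, the histone variant that marks centromeres, had 5.31, 5.16 and 6.30 FPKM.

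Kinesins, the motors that slide and carry microtubules, were lower in 8 of 9 cases with each compound. Of all genes 48.5% were lower with SFA and 44.7% with SFE. KIF11, the motor that pushes spindle poles apart (chr10:92593286-92655395), had 6.06 FPKM with SFA, 4.83 with SFE and 8.64 with DMSO. The counting intervals separated all 3 libraries, with ratios of 0.702 (0.621 to 0.793) for SFA and 0.559 (0.489 to 0.637) for SFE over DMSO. KIF23, a subunit of centralspindlin, followed the same order at 4.70, 4.11 and 6.18 FPKM. KIF20B, a motor of cytokinesis, had 1.36, 1.60 and 2.15 FPKM, and KIF18A, which dampens chromosome movement, 1.2002, 1.23 and 1.78. KIF14, another cytokinesis motor, had 1.04, 1.30 and 1.48 FPKM, with DMSO again the highest. Of the abundant motors, KIF20A had 42.6, 41.4 and 51.5 FPKM (ratios 0.826 and 0.804), KIF22 had 26.0, 25.1 and 28.1, and KIF4A had 15.4, 14.1 and 15.8. KIF2C, a microtubule depolymerase, was the exception at 30.4 FPKM with SFA and 28.3 with SFE and with DMSO.

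Spindle assembly and cytokinesis genes were mixed. ASPM, a spindle pole protein (chr1:197084128-197146694), had 1.64 FPKM with SFA, 1.43 with SFE and 2.61 with DMSO, and its SFE ratio of 0.549 (0.475 to 0.634) was the lowest of any member with SFE. TPX2, which activates AURKA on the spindle, was one of the most abundant members at 113, 109 and 118 FPKM with ratios of 0.955 and 0.918. NUSAP1, a microtubule bundler, had 10.2, 9.84 and 12.3 FPKM, and DLGAP5, which stabilises kinetochore fibres, 3.40, 3.15 and 4.202. Both were below DMSO with each compound. HMMR, a spindle protein that also binds hyaluronan, had 2.61, 2.17 and 2.54 FPKM, with intervals that included 1. ECT2, the exchange factor that turns on RhoA at the cleavage furrow, had 4.55 FPKM with SFA, 4.63 with SFE and 7.25 with DMSO (ratios 0.627 and 0.639). PRC1, which bundles midzone microtubules, had 9.97, 9.40 and 10.8 FPKM, and ANLN, a furrow scaffold, 9.40, 8.78 and 9.17.

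Genes that shape the chromosome itself included some of the largest differences. TOP2A, which untangles DNA (chr17:40388516-40417950), had 15.4 FPKM with SFA, 14.9 with SFE and 25.4 with DMSO, from 1535, 1484 and 3475 counts. Both compounds lay far below DMSO and close to each other, with ratios of 0.608 (0.572 to 0.646) and 0.587 (0.552 to 0.624). SMC2, the core ATPase subunit shared by both condensins, had 1.46, 1.28 and 2.29 FPKM. Its partner SMC4 had 2.23, 2.97 and 2.83 FPKM, with an interval below 1 for SFA (0.707 to 0.873) and one that included 1 for SFE (0.952 to 1.16). The condensin I subunits NCAPG and NCAPH had 2.85, 3.51 and 4.66 FPKM and 7.51, 8.03 and 8.98 FPKM. MKI67, the Ki-67 gene, had 3.23 FPKM with SFA, 4.06 with SFE and 4.57 with DMSO. SFE was the nearer to DMSO for MKI67 and for both condensin I subunits.

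The genes of mitotic exit diverged. CDC20, the activator of the anaphase-promoting complex and the most abundant member, had 146 FPKM with SFA, 131 with SFE and 141 with DMSO. Its SFA ratio of 1.04 turned to 0.992 under TMM scaling, a change of direction. UBE2C, the ubiquitin-conjugating enzyme that works with the complex, had 29.0, 25.4 and 37.6 FPKM, ratios of 0.772 (0.713 to 0.837) and 0.674 (0.62 to 0.733). PTTG1, which encodes securin, had 40.5, 41.9 and 38.8 FPKM, and ESPL1, which encodes its target separase, 12.9, 12.9 and 16.2. Securin RNA was thus level with or slightly above DMSO while separase RNA was lower with both compounds (ratios 0.796 and 0.801). FOXM1, the transcription factor that drives many of these genes, had 42.5, 43.6 and 49.8 FPKM, and its ratios were 0.855 (0.828 to 0.882) and 0.876 (0.849 to 0.904).

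**Figure D3:**
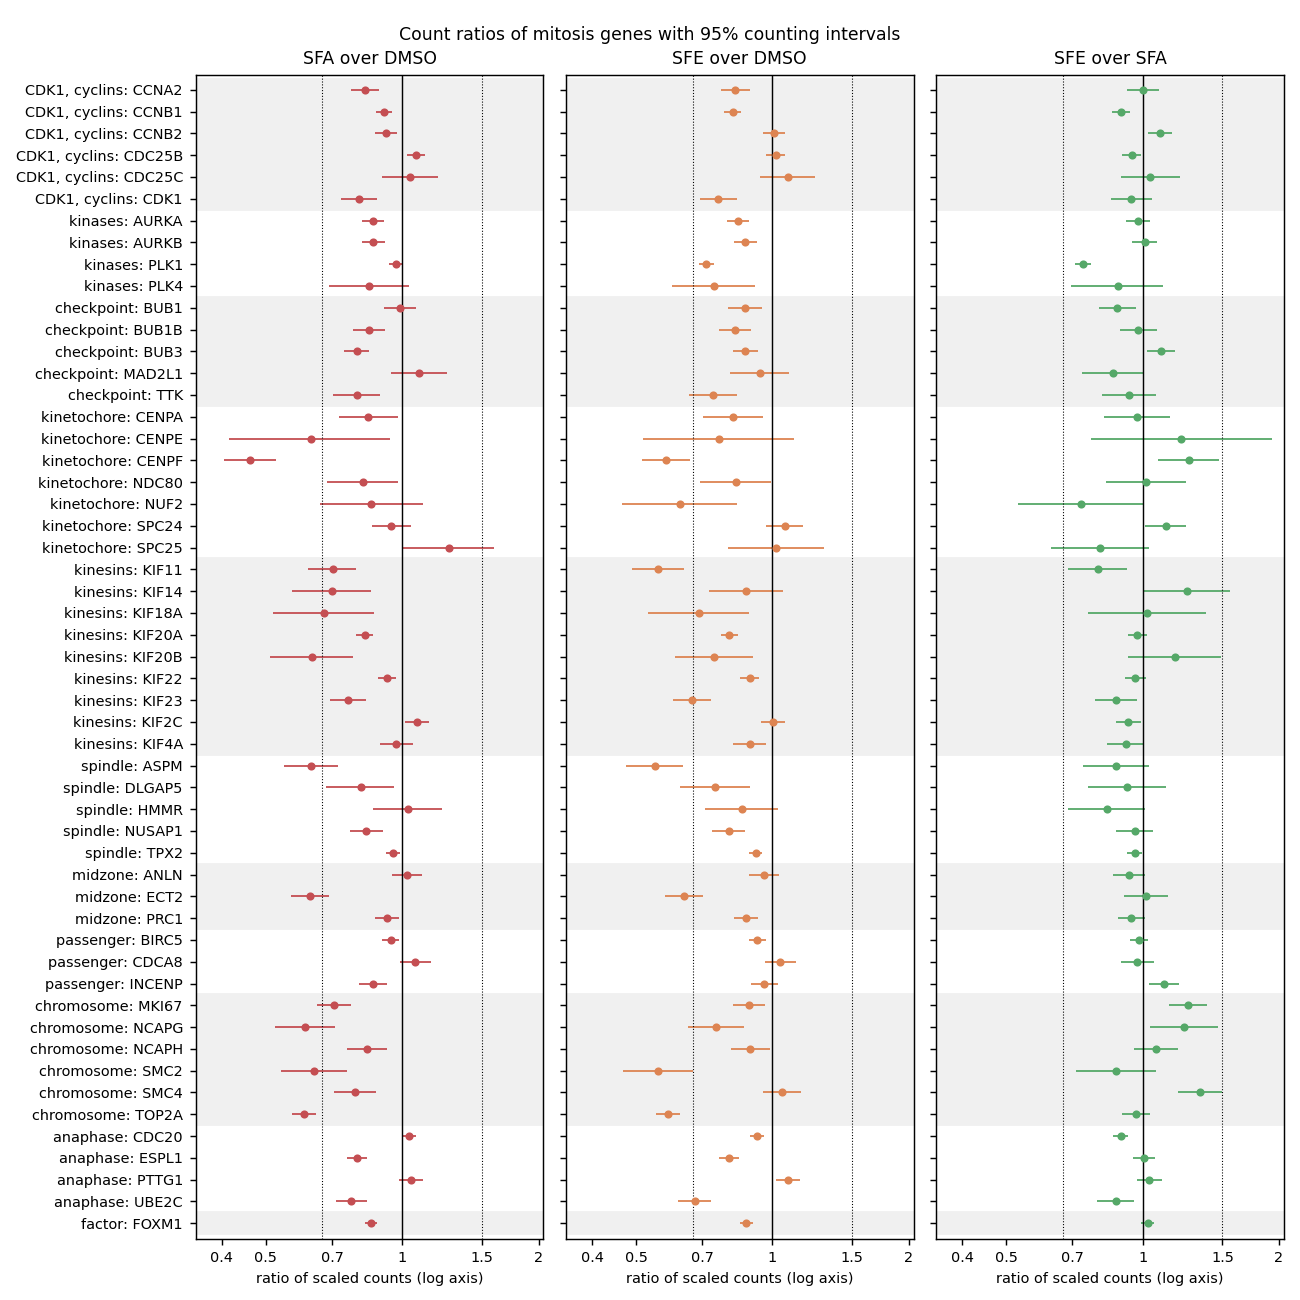
Count ratio (log axis) of each mitosis gene, with its 95% counting interval as the bar, for SFA over DMSO (left), SFE over DMSO (middle) and SFE over SFA (right). The solid line marks a ratio of 1 and the dotted lines a difference of 1.5-fold. Points in the left and middle panels lie mostly left of the solid line, with CENPF at 0.462 and ASPM at 0.549 farthest out, while the right panel straddles it.

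The SFE and SFA libraries, which differ in dose as well as compound, were set side by side. The median log2 ratio of SFE over SFA was -0.05 in the members and 0.03 over all genes. Of 52 members 32 were lower with SFE, against 44.5% of all genes, and 39 were under TMM scaling (51.3% of all genes) and under median-ratio scaling (52.9% of all genes). No member differed by 1.5-fold in either direction, where 4.26% of all genes were at least 1.5-fold lower and 5.81% higher. The interval lay below 1 for 10 members (13.2% of all genes) and above 1 for 9 (19.7% of all genes).

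PLK1 led the 10 members whose interval put SFE below SFA. PLK1 had 36.2 FPKM with SFE and 49.1 with SFA, a ratio of 0.738 (0.709 to 0.769). KIF11 had 4.83 with SFE and 6.06 with SFA (0.796, 0.685 to 0.924), and UBE2C 25.4 and 29.0 (0.873, 0.795 to 0.959). CDC20, CCNB1, BUB1, KIF23, KIF2C, CDC25B and TPX2 made up the rest, with ratios of 0.873 to 0.961. In the other direction SMC4 came first and CENPF next. SMC4 had 2.97 FPKM with SFE and 2.23 with SFA, a ratio of 1.34 (1.19 to 1.49), and CENPF had 2.18 and 1.72 (1.26, 1.08 to 1.48). MKI67 had 4.06 and 3.23 FPKM (1.26, 1.14 to 1.38), and NCAPG had a ratio of 1.23. KIF14, SPC24, INCENP, BUB3 and CCNB2 were the remaining members above 1, at 1.09 to 1.25.

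Level and gene length moved with these ratios. The 26 members below the median level of 9.32 FPKM over the 3 libraries had median log2 ratios of -0.33 with SFA and -0.40 with SFE, and the 26 at or above it had -0.13 and -0.19. Split at the same level, all genes had medians of -0.01 and 0.04 below it and 0.04 and 0.04 at or above it. The lower-level members held 6 of the 7 that were 1.5-fold lower with SFA and 7 of the 8 with SFE. Of all genes below that level 11.0% were 1.5-fold lower with SFA and 8.21% with SFE, and of those at or above it 3.71% and 3.18%. Over all 11680 genes, longer genes had slightly lower ratios to DMSO (Spearman's rho across genes -0.15 for either compound). In 5 groups of equal size by length, the all-gene median log2 ratio went from 0.09 in the shortest to -0.07 in the longest with SFA, and from 0.13 to -0.02 with SFE. Across the 52 members rho was -0.39 with SFA and -0.24 with SFE, over genes that share the same libraries. The median length was 6403 bases for members and 6643 for all genes measured. The part of length in the members' ratios was not tested. Measured against the median of their own length group, members had a median of -0.25 with SFA and -0.27 with SFE, and 44 and 48 of 52 lay below it. By construction 50% of all genes lie below it. This comparison was added after the data were seen.

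**Figure D4:**
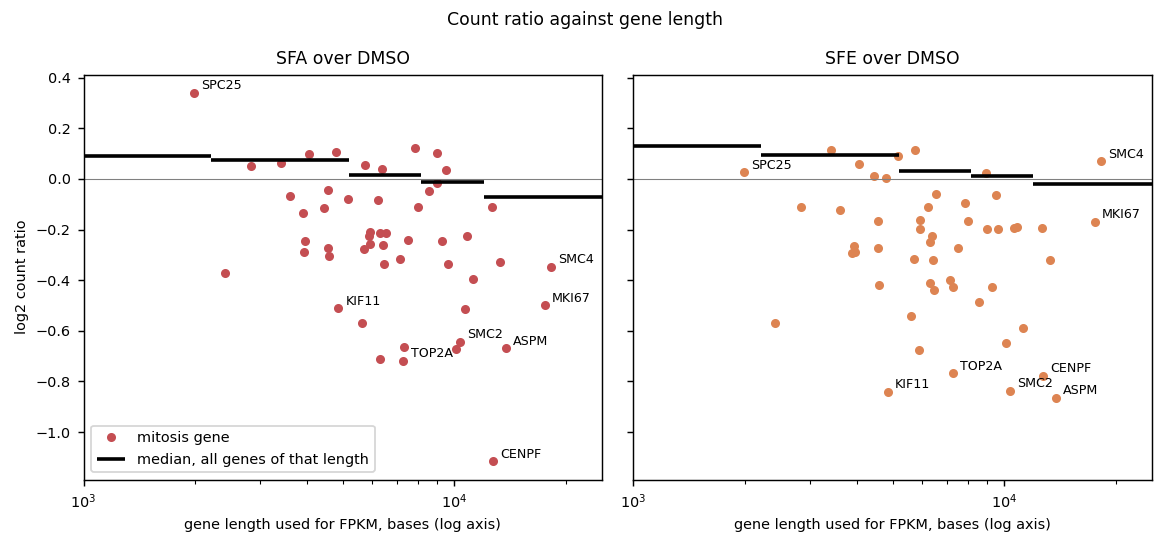
Log2 count ratio of each measured mitosis gene (points) against the gene length used for FPKM (log axis), for SFA over DMSO (left) and SFE over DMSO (right). Black bars are the medians of all genes in 5 length groups. CENPF, ASPM, SMC2 and TOP2A lie well below the bars, and SPC25, the shortest member, lies above its bar with SFA.

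The wider mitotic machinery, 136 further genes in 7 lists of which 120 were measured, differed less. Their median log2 ratio was -0.15 with SFA and -0.09 with SFE. Below DMSO were 84 (70%) and 72 (60%) of 120, where 48.5% and 44.7% of all genes were. At least 1.5-fold lower were 7 (5.83%) with SFA and 5 (4.17%) with SFE, shares under the 8.97% and 6.82% of all genes. Cohesin and its regulators, which hold sister chromatids together until separase acts, stood lowest, with 11 of 12 genes below DMSO with each compound and medians of -0.47 and -0.36. ESCO2, a cohesin acetyltransferase, had 0.886 FPKM with SFA, 1.10 with SFE and 1.49 with DMSO. SGOL1, now called SGO1, which shields centromeric cohesin, had 0.89, 0.772 and 1.39 FPKM, from 91, 79 and 195 counts. SGOL1 reached 1 FPKM only with DMSO, so it entered the cohesin count and medians only through the library where it is highest. RAD21, the cohesin subunit that separase cuts, had 8.61, 8.28 and 12.2 FPKM.

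Other spindle, motor and cytokinesis genes had medians of -0.19 with SFA and -0.14 with SFE. Of 33 such genes 28 (84.8%) were below DMSO with SFA and 26 (78.8%) with SFE, where 48.5% and 44.7% of all genes were. CKAP2, a spindle protein, had 2.76 FPKM with SFA, 2.39 with SFE and 3.87 with DMSO, and SASS6, which builds the centriole cartwheel, 0.827, 1.29 and 1.92. HAUS7, an augmin subunit, was the 1 gene of the list at least 1.5-fold higher, at 5.36, 7.24 and 2.22 FPKM (ratios 2.41 and 3.26). HAUS7 and SASS6 overlap another listed gene, as do ESCO2, SGOL1, RAD21, PMF1, SKA2, UBE2S, FZR1, NCAPD2, NEK7, NEK9, RBBP4, LIN37, POLA1, CCND2 and RB1, and their counts are uncertain. The other kinetochore genes were near the middle, with 15 and 13 of 24 below DMSO (62.5% and 54.2%) and medians of -0.12 and -0.07. CENPM, an inner kinetochore subunit, had 8.46 FPKM with SFA, 13.4 with SFE and 13.2 with DMSO. CENPQ, also of the inner kinetochore, had 0.888, 1.52 and 1.63 FPKM from only 21, 36 and 53 counts. PMF1, an outer kinetochore subunit, had 24.5, 19.1 and 29.8 FPKM, and SKA2, of the SKA complex, 2.18, 1.92 and 2.91.

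The remaining lists lay closer to all genes. Subunits and regulators of the anaphase-promoting complex had medians of -0.09 with SFA and 0.07 with SFE, and the SFE median was -0.03 under TMM scaling. UBE2S, which extends ubiquitin chains for the complex, had 72.5 FPKM with SFA, 64.9 with SFE and 50.3 with DMSO, opposite in direction to UBE2C. FZR1, the CDH1 activator of the complex, had 15.2, 14.9 and 19.7 FPKM. The other condensin subunits had medians of -0.02 and 0.09 (-0.01 under TMM), with NCAPD2 at 83.8, 88.4 and 83.2 FPKM, NCAPG2 at 11.1, 11.9 and 12.6, and NCAPH2 at 26.4, 26.9 and 25.02. Mitotic entry and checkpoint regulators had medians of 0.01 and 0.03 (-0.06 and -0.07 under TMM). There NEK7 had 2.69, 3.00 and 4.35 FPKM, and its relative NEK9 2.58, 2.59 and 1.73. MuvB, DREAM and B-MYB factors had medians of -0.10 and 0.06 (-0.04 with SFE under TMM). LIN9, a MuvB core subunit, had 1.65 FPKM with SFA, 1.497 with SFE and 2.33 with DMSO. RBBP4, another MuvB subunit, had 12.7, 9.83 and 8.68 FPKM, and LIN37, also of MuvB, 1.12, 1.39 and 0.992.

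DNA replication genes, active earlier in the cell cycle, were set beside them. All 45 were measured, with medians of -0.09 and 0.01 (-0.09 with SFE under TMM). Below DMSO were 28 (62.2%) with SFA and 20 (44.4%) with SFE, where 48.5% and 44.7% of all genes were. None was 1.5-fold lower with SFA, where 8.97% of all genes were, and 1 (2.22%) was with SFE, where 6.82% were. That gene was TK1, thymidine kinase, at 46.6 FPKM with SFA, 33.3 with SFE and 51.9 with DMSO. RFC2, a clamp loader subunit, had 17.3, 12.7 and 11.8 FPKM. GINS1, of the replicative helicase, had 2.01, 2.84 and 2.87 FPKM, and POLA1, the polymerase alpha catalytic subunit, 5.59, 5.28 and 7.16. Genes of G1, the 15 cyclins, kinases, inhibitors and E2F factors listed, had medians of -0.06 and -0.15. Of these 15 genes, 10 (66.7%) were below DMSO and 5 above it with each compound. The genes farthest from DMSO were both lower. CCND2, which encodes cyclin D2, had 0.511, 0.54 and 1.14 FPKM, and RB1, the retinoblastoma gene, 1.36, 1.56 and 2.31. CCND1, which encodes cyclin D1, was higher, at 50.3, 42.7 and 35.2 FPKM (ratios 1.43 and 1.21). CCND1 also overlaps another listed gene, so its counts are uncertain. CCND2 reached 1 FPKM only with DMSO, so it was measured only through the library where it is highest. Whether the mitosis genes differed from these lists was not tested, since genes are not replicates.

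**Figure D5:**
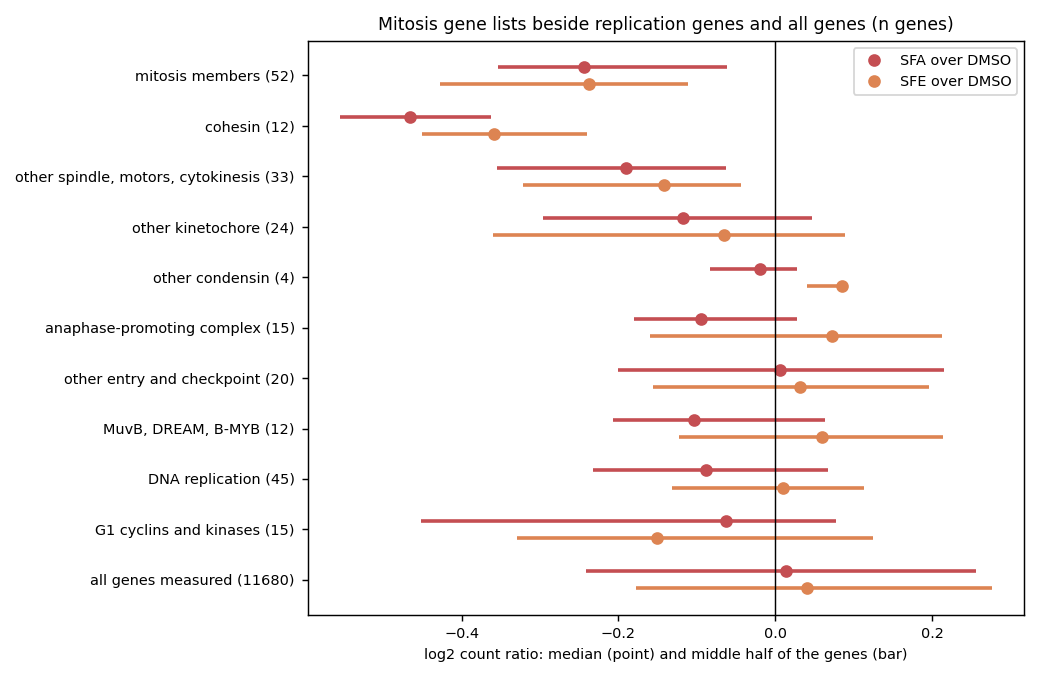
Median log2 count ratio (points) and interquartile range (bars) for the mitosis genes, 7 further lists of mitosis, DNA replication genes, G1 genes and all measured genes, with SFA over DMSO in red and SFE over DMSO in orange. The mitosis genes sit at -0.24 in both, cohesin genes at -0.47 and -0.36, and all genes at 0.01 and 0.04.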

How the data were processed

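RNA was sequenced in AGS cells treated with SFA, SFE or DMSO, 1 library each. Per the labels' protocols, total RNA was TRIzol-extracted and depleted of ribosomal RNA. The tools named are StringTie 1.2.3 and HISAT2 2.0.4, with the build hg38, per the submitters' processing notes, which state no roles. Not given in the sources used here are the counter, its strand setting and the annotation, so counts of overlapping genes (27 of the 52 measured members) are uncertain. The authors deposited raw counts and FPKM for each gene, and per the file headers both carry library names. The deposited FPKM equals the count over 1 length per gene and the library total, within 0.0831% across libraries.

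Of identifiers sharing a name, that of highest mean FPKM stood for the gene. Count ratios used library totals, and a count of 0 was replaced by a floor of 3. Ratios and intervals were checked on simulated counts that held counting error only, so the check does not cover differences between cultures. The labels describe no molecular identifiers, and intervals cover counting error only. Every member's level is given. Named genes of the other lists were the 2 per list with the largest absolute log2 ratio to DMSO with each compound. CCND1 was named besides, as a G1 gene above DMSO. RefSeq starts can differ from the gene starts in the deposited table. Members and lists were chosen with earlier results of these data known. Alternatives were TMM (edgeR 4.0.16) and median-ratio scaling, totals without mitochondrial genes, pseudocounts of 1 and 0.1 on log2 FPKM, filters of 5 FPKM and none, genes without overlaps, and summed identifiers. Python 3.11.15 with scipy 1.17.1 was used.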

Additional observations from a re-analysis of the deposited data

How the results depend on the processing

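The median log2 ratios of the members kept their sign under all 10 alternatives, at -0.30 to -0.21 for SFA over DMSO, -0.34 to -0.20 for SFE over DMSO and -0.09 to -0.04 for SFE over SFA. The share of members below DMSO with SFE was 96.2% under TMM scaling, 94.2% under median-ratio scaling and 92.3% when centred on genes of like length, an alternative added after seeing the data, where the shares of all genes were 57.7%, 55.3% and, by construction, 50%. TMM and median-ratio scaling each gave 75% of members lower for SFE over SFA, with 51.3% and 52.9% of all genes. TMM moved the all-gene median to -0.05 with SFA and -0.06 with SFE. The share at least 1.5-fold lower was 3.85% on the log2(FPKM + 1) scale with SFA (4.67% of all genes) and with SFE (3.48%), and 5.56% with SFA at a filter of 5 FPKM (6.1%). CDC20 turned to 0.992 for SFA over DMSO under TMM. No paired analysis was possible because each group has 1 library, and no library could be left out. Genes at under 100 counts, such as NUF2, are limited by counting error.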
